A study of Homo sapiens with 8 samples.

Results

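Forkhead transcription factors other than FOXQ1, FOXC1, FOXF2 and FOXM1 were examined in SKOV3, an established human cell line from an ovarian cancer, with and without added LDL, the lipoprotein particles that bring cholesterol to cells. The genes were taken by name, as every gene called FOX with a letter from A to S and a number. The deposited tables hold 22554 features; such a name was found for 52 of them, and 48 were left after the 4 exclusions. One of the 48, FOXL2NB, is named for its position beside FOXL2 and is not known as a forkhead protein gene. All 8 samples were the same line in the same medium with 10% fetal bovine serum and antibiotics. The 4 control samples received nothing more, and the 4 LDL samples received LDL at 50 µg/mL for 48 h before messenger RNA was sequenced. The title of the series names FOXQ1 as raised by LDL, so the question here was which other members of its family these cells express and whether any of them differed with LDL. Nothing in the labels tells separate cultures from repeat libraries, so p-values here measure only how far these 8 samples spread, which may be technical. In bulk RNA, fewer cells of a kind and less RNA per cell cannot be told apart.

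Forkhead proteins bind DNA through a winged-helix domain, whose recognition helix, the third of the domain, lies in the major groove, and letters after FOX mark subfamilies that share this domain most closely. FOXA proteins open closed chromatin in epithelial cells, FOXO proteins are kept out of the nucleus when growth factors activate AKT, FOXK proteins recruit chromatin-modifying complexes, and FOXP proteins repress genes as dimers. In the ovary and oviduct FOXL2 marks granulosa cells and FOXJ1 marks ciliated cells. FOXO1 and FOXO3 are known for their roles in the follicle and in cell survival.

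The part of the family that reads DNA is shown first. How well counts can be told apart depends on sharing over whole transcripts, which is given after it. The lines give 45 bases of coding sequence (15 codons) over the third helix, 5′ to 3′ on the coding strand. They come from GENCODE release 29 transcripts on GRCh38 and cover some of the members described below. The line of the pseudogene FOXO3B is not coding sequence and gives its best ungapped match to the FOXO3 line. Capitals mark bases that differ from FOXK2, the member with the highest level.
FOXK2: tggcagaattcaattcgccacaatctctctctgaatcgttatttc
FOXK1: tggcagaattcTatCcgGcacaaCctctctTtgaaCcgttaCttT
FOXO1: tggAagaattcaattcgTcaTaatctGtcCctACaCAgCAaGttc
FOXO4: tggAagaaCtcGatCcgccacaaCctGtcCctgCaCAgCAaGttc
FOXO3: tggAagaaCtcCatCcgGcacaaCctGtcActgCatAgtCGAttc
FOXO3B: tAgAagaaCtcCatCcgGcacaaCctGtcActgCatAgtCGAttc
FOXP4: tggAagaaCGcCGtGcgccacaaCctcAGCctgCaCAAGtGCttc
FOXJ3: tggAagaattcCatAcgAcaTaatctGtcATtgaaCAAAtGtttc
FOXN3: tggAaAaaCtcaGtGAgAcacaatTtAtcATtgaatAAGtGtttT
FOXE1: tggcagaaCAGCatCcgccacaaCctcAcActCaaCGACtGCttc
FOXD1: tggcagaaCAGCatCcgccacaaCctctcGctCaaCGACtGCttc
FOXL1: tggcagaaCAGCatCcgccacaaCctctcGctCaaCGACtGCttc
FOXD4: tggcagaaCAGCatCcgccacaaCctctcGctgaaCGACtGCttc
The stretch was found in 43 members, FOXO3B among them by its match to FOXO3. FOXK1 matched FOXK2 at 37 of the 45 bases and FOXP4 at 28. FOXD1 and FOXL1 carried the same 45 bases, and so did the 6 genes FOXD4, FOXD4L1, FOXD4L3, FOXD4L4, FOXD4L5 and FOXD4L6. FOXO3B, annotated as a processed pseudogene, matched FOXO3 at 44 of 45 bases and differed by the substitution G2A, counted from the first base shown with the base of FOXO3 first.

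Over whole transcripts, 64.2% of the 50-base windows of FOXO3B also occurred in FOXO3, and 89.0% of those of FOXD4L3 occurred in FOXD4L6. FOXD4 shared 47.0% of its windows with FOXD4L1. Counts of FOXO3B and of the FOXD4 group are therefore uncertain, since reads from these windows could have been given to either gene. Of the 27 members tested below, 13 overlap an annotated gene on the opposite strand, such as FOXD1-AS1 beside FOXD1 or FOXP4-AS1 beside FOXP4. The library kit keeps strand, but the strand setting used for counting is not given in the sources used here. On the same strand, the spans of FOXO3B and ZNF286B overlap, as do those of FOXO1 and LINC00598 and of FOXA2 and AL121722.1. Further members also have such overlaps, which strand cannot separate.

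Total counts ran from 37189698 to 44883561 in control and from 34682501 to 36780334 in LDL samples, so each LDL library was shallower than each control library. LDL sample 4 had the lowest of the 8 levels in 19.7% of all genes tested and the highest in 20%, or either in 39.7%, more than any other sample, followed by LDL sample 1 with 15.7% and 16.1%. Of 9 listed markers of epithelial ovarian carcinoma cells, KRT8 (1687 ± 106 CPM in control, SD, n = 4) and PAX8 (387 ± 9.98 CPM) were high. CPM is the count scaled to library size with TMM factors. MUC16 and WFDC2, of the same list, had 206 and 71 counts over the 8 libraries. The 9 markers summed to 5982 to 6446 CPM in control and 6098 to 6610 CPM in LDL samples. Summed levels of the 7 lymphocyte markers, FOXP3 among them, were 0.509 to 1.14 CPM in control and 0.287 to 0.568 CPM in LDL samples, with PTPRC, CD2 and MS4A1 at 0 in all libraries. The 6 endothelial markers summed to 4.27 to 5.17 and 3.08 to 5.28 CPM, none of them at 0 throughout. The 6 ciliated cell markers, FOXJ1 among them, summed to 1.21 to 2.06 and 1.36 to 1.98 CPM, with PIFO at 0. Of the 6 granulosa markers, FOXL2 among them, CYP19A1 and FSHR were at 0, and the sum, 22.2 to 23.7 and 17.4 to 26.0 CPM, came mostly from AMH. The 6 fibroblast markers summed to 386 to 405 CPM in control and 172 to 444 CPM in LDL samples, mostly COL1A1, which was at 146 CPM in LDL sample 4 and at 343 to 398 CPM in the other 7 samples. The part of these markers in the results below was not tested.

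Of the 48 genes, 21 had a mean of at least 1 FPKM over the 8 samples (fragments divided by gene length and by depth, the scale on which levels of different genes are compared) and are called expressed. Another 6 were lower but passed the count filter of the test, which made 27 tested. Another 15 had counts but failed the filter, and 6 had no count in any library. In a single library 35 to 39 of the 48 had a count above 0.

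FOXK2 had the highest level, 28.7 ± 0.571 FPKM in control and 29.9 ± 0.929 FPKM in LDL samples (SD, n = 4 each), and alone made up no more than 20.8% of the summed FPKM of the 48 genes in any sample. FOXD1 (18.7 ± 0.508 FPKM in control) and FOXJ3 (16.3 ± 0.334 FPKM) followed, with FPKM ranges over the 8 samples that overlapped each other. FOXP4 stood at 12.5 ± 1.48, FOXP1 at 10.5 ± 0.512, FOXE1 at 9.83 ± 0.216 and FOXO3 at 7.56 ± 0.345 FPKM in control. The length behind FPKM was not the same in every sample. FOXP4 had 14.7 FPKM in control sample 2 against 11.5 to 12.3 in the other controls. In CPM it had 73.1 in that sample against 69.3 to 74.0. The spread of FPKM values and the overlap of their ranges carry this as well. The other 14 expressed genes lay between 1.07 and 5.62 FPKM in control. Of the 20 pairs of neighbours in this order, 16 overlapped in their FPKM ranges. The 4 that did not were FOXK2 and FOXD1, FOXJ3 and FOXP4, FOXE1 and FOXO3, and FOXO3 and FOXJ2.

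**Figure D1:**
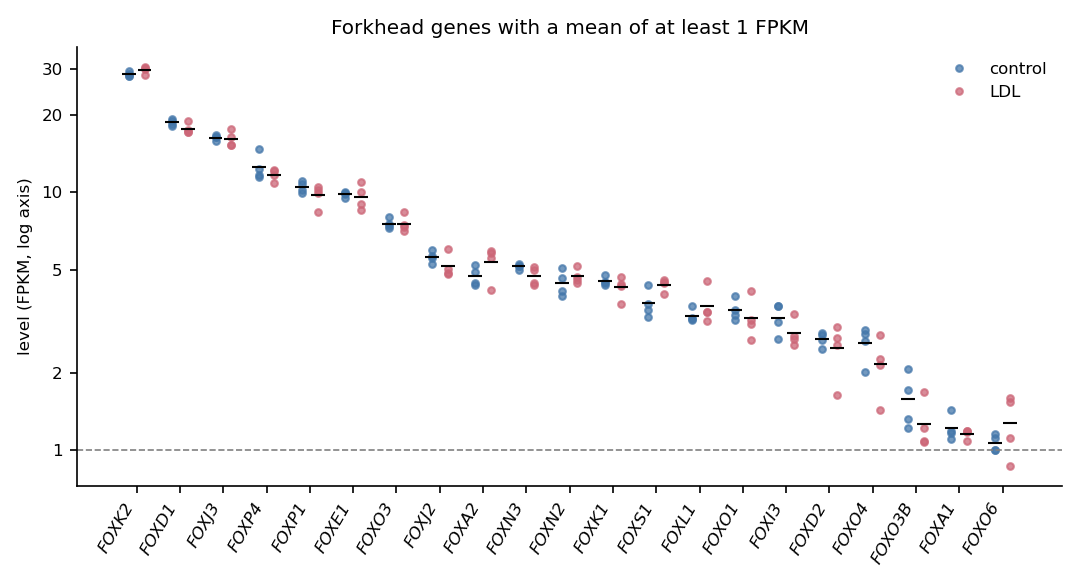
Level in FPKM (log axis) of the 21 forkhead genes with a mean of at least 1 FPKM, in order of level. Points are samples, 4 control in blue and 4 LDL in red, short lines are group means, and the dashed line is 1 FPKM. FOXK2 lies above 28 FPKM in every sample, and control and LDL points overlap in each gene on the CPM scale of the test.

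No forkhead gene of the 27 tested passed the test between LDL and control samples. With the quasi-likelihood test of edgeR and Benjamini-Hochberg adjustment over 15432 genes, adjusted p ran from 0.879 to 0.993 in the 27, and 0 passed 0.05, against 10 of all genes (0.0648%; 0.0259% higher and 0.0389% lower with LDL). At an unadjusted edgeR p under 0.05 there were also 0 of 27, against 5.59% of all genes (2.88% higher and 2.72% lower). Groups that did not overlap in CPM were found in 0 of 27, against 3.45% of all genes. DESeq2 called 0 of the 30 members to which it gave an adjusted p (0.259% of all genes) and limma voom 0 of 27 (0.0518%). Each had 1 member at an unadjusted p under 0.05, FOXN3, against 4.8% of all genes with DESeq2 and 5.89% with limma voom.

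Over the 27 tested genes 11 lay above and 16 below 0 in log2 fold change, with a median of -0.039, where 47.7% of all genes lay below 0 with a median of 0.006. When LDL sample 4 was left out this balance turned, to 15 above and 12 below 0 with a median of 0.0064, and when LDL samples 1 and 4 were both left out it was 13 and 14. Among the 21 expressed genes LDL levels ran from 0.822 of control (FOXO4) to 1.198-fold (FOXO6). The 95% interval lay within 2-fold either way for all 21 expressed genes, and within 1.5-fold either way for 19 of them. The exceptions to the narrower range were FOXO4, whose interval reached down to 0.634 of control, and FOXO6, whose interval reached up to 1.72-fold. For comparison FOXQ1 in the same fit stood at 1.54-fold (log2 fold change 0.62, SE 0.134), and did not pass adjustment (edgeR adjusted p = 0.17). Unlike the 27 members, FOXQ1 had an unadjusted edgeR p under 0.05 (2.65e-04) and groups that did not overlap. It ran from 9.40 to 11.1 CPM in control and from 11.7 to 19.9 CPM in LDL samples. Whether FOXQ1 differs from the other members was not tested.

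**Figure D2:**
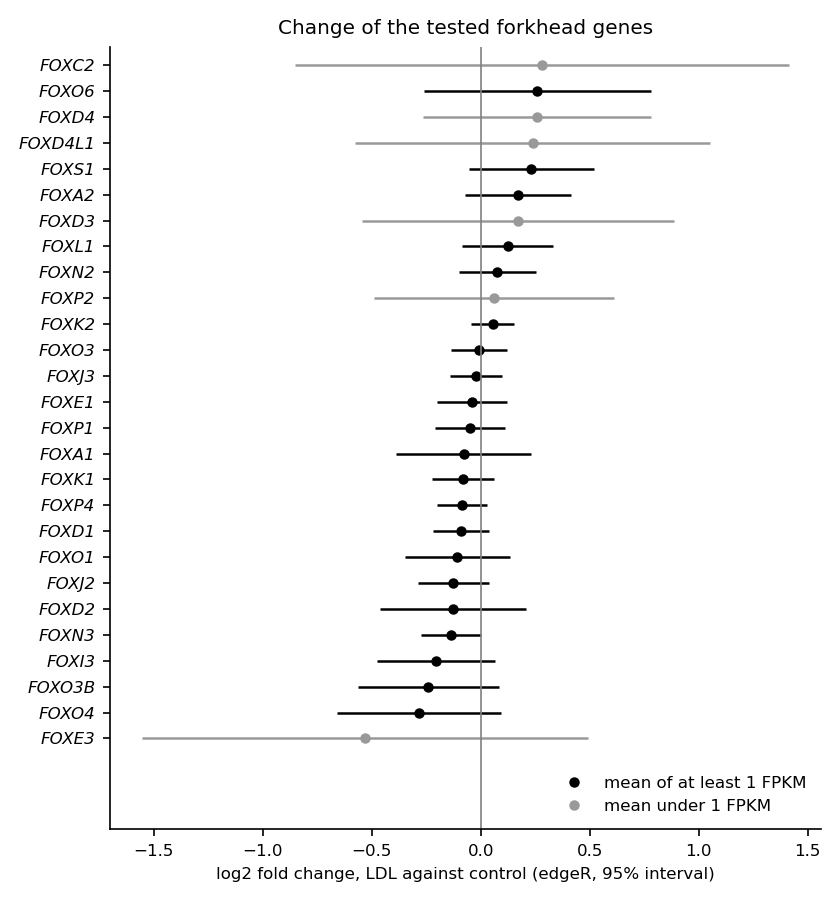
Log2 fold change of LDL against control with its 95% interval from edgeR, for the 27 tested forkhead genes in order of size. Black marks the 21 genes with a mean of at least 1 FPKM and grey the 6 below it; all 27 intervals include 0, and the widest, of FOXC2 and FOXE3, belong to genes with few counts.

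FOXO genes, whose proteins AKT keeps in the cytoplasm and which switch on genes of cell cycle arrest and stress defence when it is inactive, were led by FOXO3 in level. FOXO3 (chromosome 6, 108559835 to 108684774, plus strand, GRCh38) stood at 61.2, 58.0, 57.2 and 55.8 CPM in control samples 1 to 4 and at 62.7, 57.6, 54.7 and 56.2 CPM in LDL samples 1 to 4. The LDL samples passed the control range at both ends, and the ratio was 0.995 with an interval of 0.911 to 1.09. FOXO1 (chromosome 13, 40469953 to 40666597, minus strand) stood at 21.0, 24.1, 20.5 and 19.4 CPM in control and 24.5, 19.5, 18.9 and 16.2 CPM in LDL samples. Its highest and its lowest level were both in LDL samples, in LDL samples 1 and 4. The ratio of FOXO1 was 0.929 (0.786 to 1.10). Its log2 fold change of -0.11 became -0.022 when LDL sample 4 was left out and -0.23 when LDL sample 1 was.

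FOXO4 (X chromosome, 71096197 to 71103535, plus strand) stood at 7.68, 10.9, 10.3 and 11.2 CPM in control and 10.5, 8.25, 8.68 and 5.48 CPM in LDL samples. LDL sample 4 lay below all others, and control sample 1 was the next lowest. With a ratio of 0.822 (interval 0.634 to 1.07; edgeR adjusted p = 0.883) it had the lowest ratio of the expressed genes. Its log2 fold change was -0.28, with an SE of 0.175, and it became -0.13 when LDL sample 4 was left out and -0.42 when LDL sample 1 was. FOXO6, known mainly from brain, had the lowest mean FPKM over the 8 samples of the expressed genes, although its FPKM range overlapped that of FOXA1, which was lower in the LDL samples. It stood at 1.72, 1.57, 1.58 and 1.80 CPM in control and 1.33, 2.50, 2.42 and 1.75 CPM in LDL samples. LDL samples 2 and 3 lay above all controls and LDL sample 1 below them. The ratio of FOXO6 was 1.198 (0.835 to 1.72). FOXO3B stood at 8.02, 7.55, 7.83 and 11.1 CPM in control and 9.09, 7.32, 6.69 and 6.06 CPM in LDL samples, with control sample 4 highest, a pattern that FOXO3 did not show. Its ratio was 0.846 (0.676 to 1.06), and its log2 fold change was -0.24 with all samples and -0.37 when LDL sample 1 was left out. FOXO3B, annotated over 1928 bases, had 8.02 CPM but 1.32 FPKM in control sample 1. FOXS1, annotated over 1319 bases, had 5.91 CPM and 4.36 FPKM there. The length by which the deposited FOXO3B values were divided was therefore greater than that of the annotated pseudogene. The sequence and windows given above are those of the annotated pseudogene.

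No gene for a listed regulator of FOXO proteins passed the test. Of 24 listed regulators (among them AKT kinases, the YWHA proteins that hold FOXO in the cytoplasm, acetylases and deacetylases) 24 were tested and 0 passed, with 11 above and 13 below 0 and a median log2 fold change of -0.013. CREBBP, an acetylase of FOXO proteins, was the 1 member with an unadjusted edgeR p under 0.05, against 5.59% of all genes. CREBBP stood at 0.92 of control (edgeR adjusted p = 0.878). For this list and those below, the shares over all genes were 0.0648% that passed and 47.7% below 0. Of 28 listed FOXO target genes 25 were tested and 0 passed, with 12 above and 13 below 0 and a median of -0.003, while FASLG, TRIM63 and PCK1 had no counts. BNIP3, a mitophagy receptor gene, stood at 38.1, 38.9, 35.4 and 32.7 CPM in control and 44.7, 40.6, 39.3 and 46.9 CPM in LDL samples. The groups of BNIP3 did not overlap, which was so for 3.45% of all genes. The ratio of 1.18 (1.06 to 1.32) did not pass over all genes (edgeR adjusted p = 0.662). PIK3IP1, an inhibitor of PI3-kinase, stood at 2.30, 2.05, 2.09 and 2.33 CPM in control and 2.14, 1.39, 1.36 and 1.23 CPM in LDL samples. LDL sample 1 lay among the controls and the other LDL samples below them, with a ratio of 0.698 (edgeR adjusted p = 0.878).

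FOXK genes encode nuclear partners of the BAP1 deubiquitinase complex and of SIN3A. FOXK2 (chromosome 17, 82519713 to 82644662, plus strand) stood at 151, 153, 158 and 149 CPM in control and 158, 152, 163 and 163 CPM in LDL samples. It was the most tightly measured member, with a ratio of 1.04 and an interval of 0.971 to 1.11. FOXK1 (chromosome 7, 4682309 to 4771443, plus strand) stood at 47.6, 50.7, 55.1 and 49.2 CPM in control and 49.8, 48.5, 43.0 and 50.1 CPM in LDL samples, a ratio of 0.945 (0.855 to 1.04). Only LDL sample 3 lay below the control range. Of 15 listed partners of FOXK proteins 14 were tested and 0 passed (median log2 fold change -0.038, 5 above and 9 below 0). HCFC1, a scaffold of the BAP1 complex, had the lowest p, with 199, 201, 217 and 224 CPM in control and 212, 186, 178 and 171 CPM in LDL samples. LDL sample 1 lay within the controls and the other LDL samples below them, with a ratio of 0.888 (edgeR adjusted p = 0.822).

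FOXP genes encode repressors that pair through a leucine zipper. FOXP4 (chromosome 6, 41546426 to 41602384, plus strand) stood at 69.3, 73.1, 71.0 and 74.0 CPM in control and 71.7, 67.2, 66.7 and 64.8 CPM in LDL samples. LDL samples 2, 3 and 4 lay below all controls and LDL sample 1 among them, with a ratio of 0.941 (0.869 to 1.02). FOXP1 (chromosome 3, 70952817 to 71583993, minus strand) stood at 71.1, 65.8, 63.9 and 63.5 CPM in control and 60.6, 68.1, 71.6 and 55.2 CPM in LDL samples. The LDL samples of FOXP1 spanned more than the whole control range, and the ratio was 0.966 (0.865 to 1.08). FOXP2, known for its part in speech and brain development, was below 1 FPKM (0.56 in control and 0.60 FPKM in LDL samples) with 54 to 127 counts a library and a ratio of 1.04. FOXP3, the regulator of regulatory T cells, had 9, 7, 14 and 38 counts in control and 8, 6, 11 and 3 in LDL samples and was not tested. Of 12 listed corepressors and partners of FOXP proteins 11 were tested and 0 passed, with 1 above and 10 below 0 and a median of -0.038. Of all genes 47.7% lay below 0. The 1 above 0 was CTBP2, which also had the smallest p (1.06-fold, edgeR adjusted p = 0.883).

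FOXA genes encode pioneer factors of epithelial and hormone-responsive tissue. FOXA2 (chromosome 20, 22581005 to 22585455, minus strand) was the main one, at 11.8, 13.9, 11.8 and 13.1 CPM in control and 15.4, 15.5, 14.9 and 11.1 CPM in LDL samples. LDL samples 1, 2 and 3 lay above all controls and LDL sample 4 below all of them. The ratio of FOXA2 was 1.13 (0.95 to 1.33, edgeR adjusted p = 0.884). Its log2 fold change was 0.17 with all samples and 0.27 when LDL sample 4 was left out, the latter with an unadjusted edgeR p of 0.013 and an adjusted p of 0.731. FOXA1 (chromosome 14, 37589984 to 37596059, minus strand) stood at 5.23, 4.11, 4.34 and 4.38 CPM in control and 4.30, 4.42, 4.07 and 4.33 CPM in LDL samples, a ratio of 0.948 (0.765 to 1.17). FOXA3 had 74 counts over the 8 libraries and was not tested. Of 16 listed FOXA partners and hormone-responsive genes 9 were tested and 0 passed, with a median of -0.026 (4 above and 5 below 0), and GRHL2, TFF1 and TFF3 were among those with no counts. ESR1, the estrogen receptor gene, was low, with 24, 54, 46 and 51 counts in control and 25, 29, 9 and 29 in LDL samples (edgeR adjusted p = 0.882), and control sample 1 lay among the LDL samples.

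FOXN3, of the FOXN genes, had the lowest unadjusted p of the 27 tested members. FOXN3 (chromosome 14, 89124871 to 89619149, minus strand), a repressor linked to the DNA damage checkpoint, stood at 43.3, 42.5, 41.5 and 42.1 CPM in control and 39.7, 36.5, 35.9 and 42.0 CPM in LDL samples. LDL samples 1, 2 and 3 lay below all controls and LDL sample 4 within their range. The ratio of FOXN3 was 0.91 (0.827 to 1.00) with an unadjusted edgeR p of 0.0548 and an adjusted p of 0.879. Without LDL sample 4 the unadjusted p was 0.0135 and the adjusted p 0.731. FOXN2 (chromosome 2, 48314637 to 48379294, plus strand) stood at 26.2, 28.8, 23.6 and 22.6 CPM in control and 28.3, 25.3, 26.9 and 26.1 CPM in LDL samples, a ratio of 1.05 (0.932 to 1.19), with all 4 LDL samples inside the control range.

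FOXJ3 (chromosome 1, 42176539 to 42335877, minus strand) stood at 86.7, 87.4, 90.8 and 84.7 CPM in control and 92.2, 81.2, 89.1 and 81.3 CPM in LDL samples, a ratio of 0.984 (0.906 to 1.07). FOXJ2 (chromosome 12, 8032703 to 8055503, plus strand) stood at 30.3, 34.7, 33.0 and 32.1 CPM in control and 33.8, 28.2, 28.1 and 29.2 CPM in LDL samples. LDL samples 2, 3 and 4 of FOXJ2 lay below all controls, LDL sample 1 did not, and the ratio was 0.917 (0.819 to 1.03). FOXJ1, the switch for motile cilia, had 9 counts in all controls together and 15 in the LDL libraries. Of 20 genes of the ciliated cell programme 12 were tested and 0 passed (median 0.047, 7 above and 5 below 0). CAPS, the calcyphosine gene, had the lowest p of these, at 7.68, 7.23, 5.81 and 8.44 CPM in control and 7.33, 10.7, 12.0 and 9.87 CPM in LDL samples. LDL sample 1 lay among the controls for CAPS and the other LDL samples above them, with a ratio of 1.37 (edgeR adjusted p = 0.743).

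FOXD genes act in the development of kidney stroma, neural crest and retina. FOXD1 (chromosome 5, 73444827 to 73448527, minus strand) stood at 50.2, 47.7, 49.2 and 50.1 CPM in control and 44.9, 45.3, 50.1 and 45.1 CPM in LDL samples. LDL samples 1, 2 and 4 lay below all controls and LDL sample 3 at the top of their range, with a ratio of 0.939 (0.86 to 1.03). FOXD2 (chromosome 1, 47436017 to 47440691, plus strand) stood at 7.37, 7.92, 7.00 and 7.81 CPM in control and 7.41, 7.15, 8.45 and 4.56 CPM in LDL samples. LDL sample 4 alone lay far below. The log2 fold change of FOXD2 was -0.13 with it and 0.03 without it. FOXD4, FOXD4L1 and FOXD3 were below 1 FPKM, with 441, 283 and 286 counts over the 8 libraries and ratios of 1.195, 1.18 and 1.13, and their intervals reached from 0.67 to 2.07-fold. FOXD4L3, FOXD4L4, FOXD4L5 and FOXD4L6 had 15, 29, 31 and 22 counts and were not tested.

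The remaining expressed genes belong to small subfamilies. FOXE1 (chromosome 9, 97853254 to 97856715, plus strand, annotated with 1 exon), a thyroid developmental factor, stood at 36.2, 35.1, 36.4 and 36.9 CPM in control and 35.8, 31.3, 33.3 and 40.2 CPM in LDL samples, a ratio of 0.973 (0.871 to 1.09). Control samples lay close together and LDL samples on both sides of them. FOXI3 (chromosome 2, 88446787 to 88452656, minus strand), a factor of ectodermal organs, stood at 8.00, 9.36, 11.0 and 10.8 CPM in control and 9.84, 8.31, 7.73 and 8.04 CPM in LDL samples, a ratio of 0.866 (0.718 to 1.05). FOXS1 (chromosome 20, 31844301 to 31845619, minus strand, annotated with 1 exon), known from neural crest derivatives and pericytes, stood at 5.91, 4.80, 4.57 and 5.07 CPM in control and 6.11, 6.10, 6.20 and 5.51 CPM in LDL samples. LDL samples 1, 2 and 3 lay above all controls, and the ratio was 1.17 (0.962 to 1.43, edgeR adjusted p = 0.883). With FPKM values, FOXS1 was the 1 member with an unadjusted limma p under 0.05, against 6.29% of all genes with log2(FPKM + 1), 6.33% with log2(FPKM + 0.1) and 5.96% with no minimum level.

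FOXL1 (chromosome 16, 86576368 to 86582160, plus strand), known from the mesenchyme under the gut epithelium, stood at 17.8, 15.9, 16.9 and 16.4 CPM in control and 17.1, 16.5, 17.5 and 21.9 CPM in LDL samples. Only LDL sample 4 lay above the control range, the ratio was 1.09, and the log2 fold change was 0.12 (interval -0.08 to 0.33) with that sample and 0.02 without it. FOXL1 shares a cluster with FOXC2 and FOXF1 on the same strand, with gaps of 6640 bases between FOXC2 and FOXL1 and 51411 bases between FOXF1 and FOXC2. Levels in this cluster differed by more than their spread over samples: FOXL1 was at 3.16 FPKM or more in all 8 samples, FOXC2 at 0.559 FPKM or less, and FOXF1 had 10 counts in all. FOXC2, a lymphatic and mesenchymal factor, had 24, 22, 26 and 22 counts in control and 15, 59, 19 and 6 in LDL samples. Its 4 control values lay close together and its LDL values on both sides of them, so its ratio of 1.21 had an interval of 0.553 to 2.66. FOXE3, a lens factor 17965 bases from FOXD2, had 104 counts over the 8 libraries and a ratio of 0.693 (0.341 to 1.41).

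**Figure D3:**
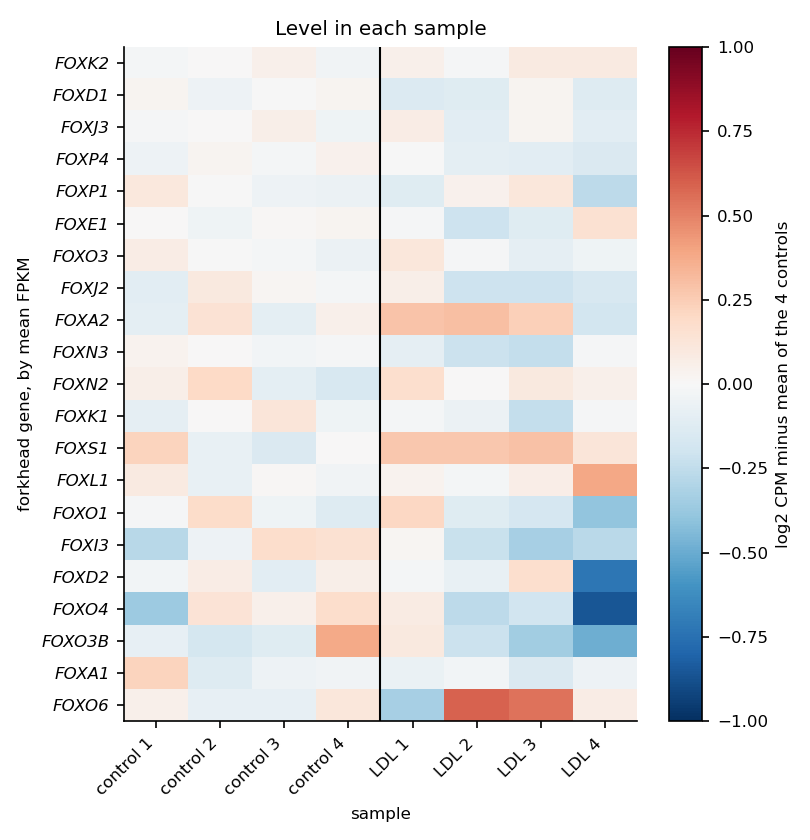
Level of the 21 expressed forkhead genes (rows, by mean FPKM) in each of the 8 samples (columns), as log2 CPM minus the mean of the 4 controls; blue is lower and red higher. LDL sample 4 holds the lowest levels of FOXO4 and FOXD2, at 5.48 and 4.56 CPM, and LDL samples 2 and 3 the highest of FOXO6.

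Several lineage regulators of the family had too few counts to test. FOXB1 had 84, FOXN1 29, FOXH1 13, FOXL2 11, FOXR1 6 and FOXR2 4 counts over the 8 libraries. FOXB2, FOXI1, FOXI2, FOXL2NB, FOXL3 and FOXN4 had none. A count of 0 still allows 3 counts, equal to 0.0673 CPM in the deepest and 0.0872 CPM in the shallowest library (counting error only). That limit takes counts as independent of each other, which was not tested. FOXH1 acts with SMAD proteins downstream of nodal and activin. Of 14 listed partners and targets of it 9 were tested and 0 passed (median log2 fold change -0.085, 2 above and 7 below 0), with SMAD4 at 0.912 of control (edgeR adjusted p = 0.876).

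The spread between samples was wider with LDL in most expressed genes, where each LDL library was also shallower. In 16 of the 21 expressed genes (76.2%) the SD of log2 CPM was larger in the LDL than in the control samples, against 64.6% of all genes tested; over the 27 tested members it was 19 (70.4%). Without LDL sample 4 this held for 13 of 21 (61.9%) and for 15 of the 27 (55.6%), against 55.6% of all genes. Those shares set 3 LDL samples against 4 controls, so they are not comparable with the shares from 4 samples each. LDL sample 4 was the lowest of the 8 in 9 of the 27 tested members and the highest in 4. Without it, 2 of 28 members had an unadjusted edgeR p under 0.05, FOXN3 lower and FOXA2 higher, against 5.26% of all genes (2.51% lower). Without LDL sample 1, 7 of 29 members had such a p (FOXN3, FOXP4, FOXJ2, FOXO1, FOXO4, FOXO3B and FOXI3), all 7 lower with LDL. In that fit 14.5% of all genes had such a p, and 7.22% had it and were lower. None of these members passed adjustment, and the smallest edgeR adjusted p was 0.203, of FOXJ2. Without both LDL samples 1 and 4, 5 of 29 members had an unadjusted edgeR p under 0.05 (13.9% of all genes, 7.32% lower). The smallest adjusted p was then 0.0922, of FOXN3.

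Related genes were also compared with each other within each sample, where library size cancels, for 8 pairs chosen with the levels known. On the FPKM scale FOXK2 stood 6.15 to 8.22 times above FOXK1 over the 8 samples, FOXP4 1.03 to 1.36 times above FOXP1, FOXJ3 2.72 to 3.40 times above FOXJ2 and FOXA2 3.12 to 5.10 times above FOXA1. In counts, which are not divided by length, the ratio of FOXP4 to FOXP1 ran from 0.932 to 1.18. The count ratio of FOXK2 to FOXK1 was 3.02 ± 0.123 in control and 3.34 ± 0.302 in LDL samples (SD, n = 4 each; exact two-sided permutation p = 0.0571, adjusted over the 8 pairs 0.229). The count ratio of FOXN3 to FOXN2 was 1.69 ± 0.167 in control and 1.45 ± 0.118 in LDL samples, with the same permutation p and adjusted value. These 2 came closest, and in both the groups overlapped. In the other 6 pairs the exact permutation p ran from 0.171 to 0.943. FOXO3 to FOXO4 and FOXD1 to FOXD2 had their highest ratios in LDL sample 4, at 10.3 and 9.88.

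**Figure D4:**
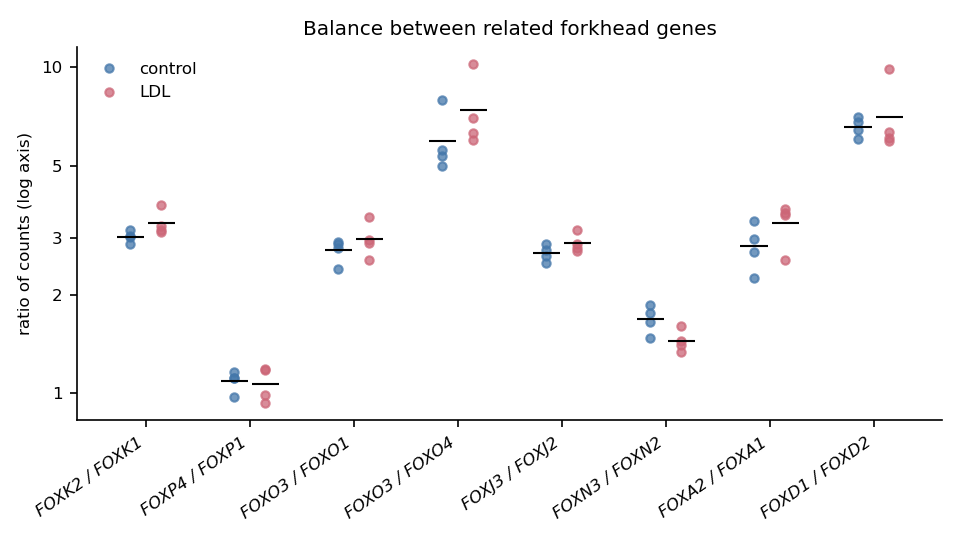
Ratio of counts (log axis) between 8 pairs of related forkhead genes in each sample, control in blue and LDL in red, with short lines for group means. The groups overlap in all 8 pairs, and the highest ratios of FOXO3 to FOXO4 and FOXD1 to FOXD2, 10.3 and 9.88, are those of LDL sample 4.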

How the data were processed

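RNA of 8 samples was sequenced with a stranded mRNA kit, per the labels. The authors made and deposited a table of whole numbers per gene, taken here as estimated counts because 55.2% of values from 1 to 20 were even. They also deposited FPKM values per gene, normalized by the authors for length and depth. HISAT2, featureCounts, DESeq2 1.26.0 and GRCh38 are named in the submitters' processing notes without their roles; no source used here gives the annotation or the counting settings. Samples were grouped by their titles. Between libraries of a group chi-square per degree of freedom was at least 6.72, so none was counted as a repeat sequencing of the same library. This value cannot tell separate cultures from separate libraries of the same culture.

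The whole count table was fitted in edgeR 4.0.16 by quasi-likelihood (R 4.3.3, TMM, default filterByExpr, robust dispersion, group only), with Benjamini-Hochberg adjustment. Intervals are 95% intervals from that fit. Expressed means a mean of at least 1 FPKM over the 8 samples. Forkhead genes with a count were named, except 1 that is not reported here; from related lists, genes with an unadjusted p under 0.05, or else the smallest p. The members, lists and tests were chosen with earlier results of these data known. Tests were checked on simulated counts. Alternatives were other scaling, filters, DESeq2 1.42.0, limma 3.58.1 (voom, and log2(FPKM + 1) or log2(FPKM + 0.1)), a replicate block and leaving out samples. Positions and transcripts came from GENCODE release 29, which held 47 of the 48 genes.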

Additional observations from a re-analysis of the deposited data

Results flagged for a closer look

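Within the 4 samples of a group, a sample was singled out when its gap to the nearest other divided by the group's range passed Dixon's 95% critical value. This was applied to 54 groups (27 tested forkhead genes in control and LDL), and 4 samples met it; chance gives about 1 in 20 groups. FOXD1 was at 50.12 CPM in LDL sample 3 against 44.87 to 45.28 CPM in the other LDL samples. FOXA2 was at 11.11 CPM in LDL sample 4 against 14.91 to 15.55 CPM. FOXS1 was at 5.511 CPM in LDL sample 4 against 6.103 to 6.2 CPM. FOXO3B was at 11.07 CPM in control sample 4 against 7.55 to 8.022 CPM in the other controls.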

How the results depend on the processing

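No forkhead gene passed an adjusted p of 0.05 under any of the 19 other settings run. Of 501 log2 fold changes of tested members under other settings, 485 kept their sign and 16 did not. Over all genes the 10 calls became 15 with no count filter, 43 with DESeq2, 4 and 2 with log2(FPKM + 1) and log2(FPKM + 0.1) at a mean of at least 0.5 FPKM, 3 with log2(FPKM + 1) and no minimum, and 248 without LDL samples 1 and 4 (an alternative chosen after seeing the data). Leaving out each sample gave 2 to 149 calls, the highest without LDL sample 1. With the replicate number as a block there were 2 calls and 0 among the forkhead genes. Deviations of same-numbered samples correlated at -0.096 to 0.023, so no deviation shared by number was seen. The labels do not say whether same-numbered samples were handled together, and these correlations cannot tell. The cause of these shifts was not tested.

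Signs changed in 8 genes. With each sample left out, log2 fold changes ran from -0.11 to 0.0092 in FOXE1, -0.049 to 0.019 in FOXO3, -0.10 to 0.26 in FOXP2, -0.11 to 0.014 in FOXP1, -0.059 to 0.0019 in FOXJ3, -0.24 to 0.027 in FOXD2, -0.023 to 0.65 in FOXD4L1 and -0.63 to 0.60 in FOXC2. Without LDL samples 1 and 4, FOXP1 was at 0.076 and FOXD2 at 0.048. FOXC2 was at -0.18 with limma voom and -0.095 with the replicate block. The number of expressed genes, 21, was 21 to 27 under other definitions. The 15 genes with counts that failed the filter had too few for the test.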
